A study of Rattus norvegicus with 4 samples.

Results

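H3K9me3 peaks near the ends of the rat autosomes were described in adipose-derived mesenchymal stem cells, the stromal progenitors of fat. The peaks whose midpoint lay in the first 3 Mb or in the last 3 Mb of chromosomes 1 to 20 were taken, with the length of a chromosome taken as the outermost base that a peak of these lists reached. This gave 1230 of the 25633 peaks of the H3K9me3 lists, of which 424 of 8929 were vehicle peaks and 806 of 16704 were BCAA peaks. Position 1 opens the first end of a chromosome, and the last end closes it.

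The cells came from Sprague Dawley rats and grew in a medium lacking the branched-chain amino acids (BCAA), which are leucine, isoleucine and valine. They were given vehicle or 3.432 mM BCAA for 12 h. Both groups received 100 µM hydrogen peroxide, so the controls carried this oxidant too. Chromatin was profiled by CUT&Tag, in which an antibody guides a transposase that cuts the DNA beside its target. Each condition gave 1 library with an antibody to H3K9me3 and 1 with normal rabbit IgG, which has no chromatin target. Since each group is 1 library, differences between vehicle and BCAA were not checked by replicates and carry no p-value. Intervals are exact 95% intervals that cover counting error only, and neighbouring peaks are not independent of each other.

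Trimethylation of histone H3 at lysine 9 is placed by the SUV39H and SETDB1 methyltransferases and is bound by HP1 proteins, which keep the underlying chromatin compact. The mark is known from the satellite arrays around centromeres, from subtelomeric chromatin and from silenced transposable elements. Centromeric and telomeric repeats are poorly represented in genome assemblies, so peaks near an assembled end lie in the sequence beside those repeats. The rat autosomes differ in shape. In the standard karyotype chromosomes 2 and 4 to 10 are telocentric, with the centromere at the tip, chromosomes 1, 3 and 11 to 13 are subtelocentric, and chromosomes 14 to 20 are metacentric.

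The libraries differed in ways that touch every comparison between them. The shortest autosomal peak measured 119 bp in the vehicle list and 163 bp in the longer BCAA list. Depth is not known from peak lists, and its part in the differences between the lists was not tested. Ends were therefore compared with the interior of the same chromosomes within each list. Neither IgG list had a peak in an end. Only 8 of the 16 vehicle IgG peaks and 6 of the 11 BCAA IgG peaks lay on the autosomes. With so few peaks their absence from the ends says little, since the ends make up 4.58% of the autosomal length.

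The ends carried slightly more peaks per Mb than the interior. With vehicle, the ends held 3.53 peaks per Mb against 3.20 in the interior, a ratio of 1.10 whose interval of 0.998 to 1.22 includes equality. With BCAA the ends held 6.72 peaks per Mb against 5.91, a ratio of 1.14 (1.06 to 1.22). Both ratios count the peaks that set the chromosome length, and leaving those peaks out gave 1.08 and 1.12. The excess was small beside the spread among single ends. Without the first ends of chromosomes 2 and 7, which had the most peaks and were chosen for it, the ratios were 1.05 (0.942 to 1.16) with vehicle and 1.05 (0.976 to 1.14) with BCAA, so that both intervals include equality. Both ends pooled were denser than the interior on 12 of 20 chromosomes with vehicle and on 10 of 20 with BCAA, and in both lists on 7 (chromosomes 2, 3, 5, 7, 10, 17 and 18).

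Set against the interior, the first ends stood at 1.15 (0.997 to 1.31) times its density with vehicle, and with BCAA at 1.23 (1.11 to 1.35). The last ends stood at 1.06 (0.920 to 1.22) and 1.05 (0.941 to 1.16). Without chromosomes 2 and 7 the first ends stood at 1.03 (0.882 to 1.19) and 1.06 (0.951 to 1.18). Between the sides, the 220 vehicle peaks of the first ends and the 204 of the last ends gave a ratio of 1.08 (0.887 to 1.31). With BCAA the first ends held 435 peaks and the last ends 371, a ratio of 1.17 (1.02 to 1.35). Without the first 3 Mb of chromosome 2, the end with the most peaks, this ratio was 1.11 (0.960 to 1.28). Within chromosomes neither side was the denser as a rule. The first end had more peaks than the last on 8 chromosomes with vehicle, fewer on 9 and as many on 3, and with BCAA it had more on 10 and fewer on 10.

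**Figure D1:**
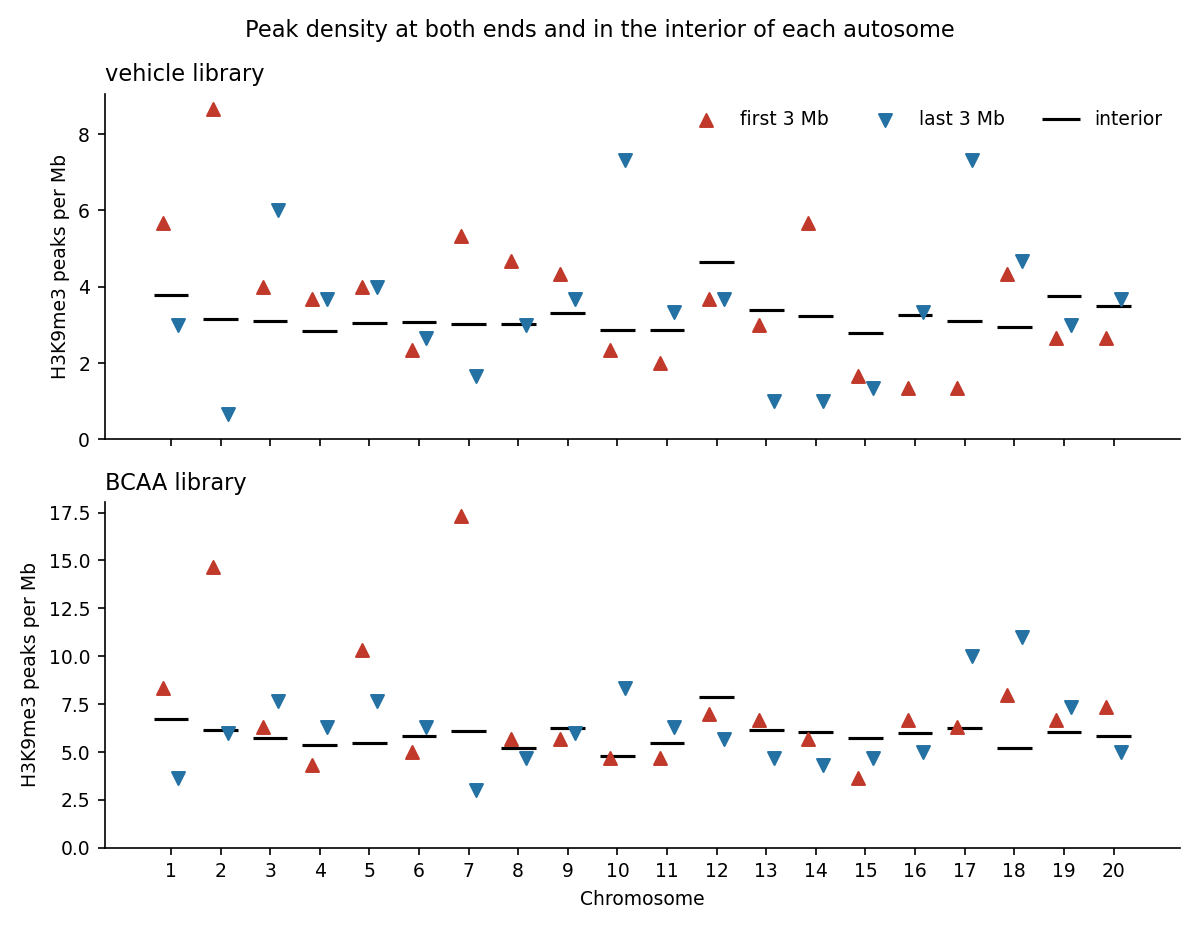
Peaks per Mb (y axis) in the first 3 Mb (upward triangles), the last 3 Mb (downward triangles) and the interior (black lines) of each autosome (x axis), with vehicle above and BCAA below. Ends scatter widely about the interior of their chromosome, and the highest points are the first ends of chromosome 2 with vehicle (26 peaks in 3 Mb) and of chromosome 7 with BCAA (52 peaks).

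Interior windows of the same length set the scale for a single end. The interior held 824 whole windows of 3 Mb, with a median of 8 vehicle and 16 BCAA peaks. The ends had medians of 10.5 and 19 peaks. Most ends thus lay above the typical window. With vehicle 26 of 40 ends (65%) were above the interior median, against 48.9% of interior windows, and with BCAA 27 of 40 ends were (67.5%, against 48.9%). By side these were 12 first and 14 last ends with vehicle, and 15 first and 12 last ends with BCAA. The last ends are placed at the outermost peak and hold it by construction, which interior windows are not. The densest interior windows, with up to 108 vehicle and 139 BCAA peaks, exceeded every end.

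Within the first ends the density was highest in the outermost Mb, a step singled out after its values had been seen. There the 20 first ends held 101 vehicle peaks, or 5.05 per Mb (1.58 times the interior, 1.28 to 1.92), and 181 BCAA peaks, or 9.05 per Mb (1.53 times, 1.32 to 1.77). The ratio stayed between 1.41 and 1.66 with vehicle and between 1.43 and 1.60 with BCAA when any 1 chromosome was left out. Without both chromosomes 2 and 7 it was 1.37 (1.08 to 1.71) and 1.34 (1.13 to 1.58). From 1 to 2 Mb the first ends held 3.05 and 6.45 peaks per Mb, and from 2 to 3 Mb 2.90 and 6.25, nearer to the interior values. Chromosome 2 (15 vehicle and 18 BCAA peaks), chromosome 1 (12 and 17), chromosome 7 (7 and 20), chromosome 19 (8 and 15) and chromosome 18 (9 and 13) had the most peaks in their first Mb. Chromosome 13 had 0 and 1.

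In the last ends the outermost Mb held 75 vehicle peaks (3.75 per Mb, 1.17 times the interior, 0.920 to 1.47) and 151 BCAA peaks (7.55 per Mb, 1.28 times, 1.08 to 1.5). Both ratios count the peaks that set the chromosome length, which raises them by construction, so no excess is read from them. The final 100 kb alone held 25 of the vehicle and 36 of the BCAA peaks. Of these, 9 and 12 were the very peaks that set the chromosome length and so had to be there. Of the other 16 vehicle peaks, 5 overlapped the BCAA peak that set the length, and of the other 24 BCAA peaks 0 overlapped such a vehicle peak. A window placed at the outermost peak is bound to hold one, so the density of the final 100 kb was not set against that of the interior. From 100 kb to 1 Mb the last ends held 2.78 and 6.39 peaks per Mb.

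Some steps farther in came close to the outermost Mb of the first ends with BCAA and passed it with vehicle. From 5 to 6 Mb after the first end the density was 5.15 per Mb with vehicle and 8.70 with BCAA, where chromosome 15 alone gave 26 of 103 and 45 of 174 peaks. From 9 to 10 Mb before the last end it was 5.70 and 8.05.

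**Figure D2:**
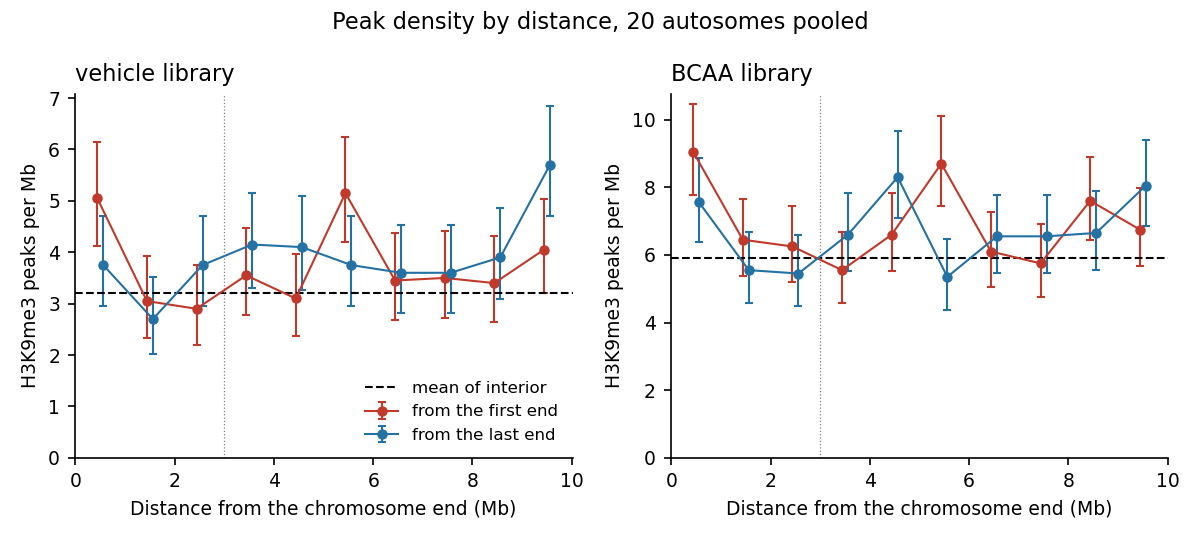
Peaks per Mb (y axis) in steps of 1 Mb from the first and the last end (x axis, distance in Mb), pooled over 20 autosomes, with exact Poisson 95% bars, the interior mean (dashed) and the 3 Mb limit (dotted). The outermost step from the first end stands at 5.05 with vehicle and 9.05 with BCAA, and the step from 5 to 6 Mb stands at 5.15 and 8.70.

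Some single ends were as dense as the upper tail of interior windows, though none reached the densest of them. A count at or above the 95th percentile of interior windows was found in 3 of 40 ends with vehicle (background over all 864 windows 5.21%), in 5 of 40 with BCAA (background 5.44%) and in both lists in 2 (background 2.78%). These 2 were the first end of chromosome 2 and the last end of chromosome 17. As shares of the ends these are 7.5%, 12.5% and 5%. They rest on counts of 5 or fewer, too few to set the ends apart from other windows. Windows of the last ends are also placed at the outermost peak, so they hold a peak by construction. The count in both lists depended on the settings. It was 7 of 40 (17.5%) with windows of 1 Mb (background 2.61%), 3 of 40 (7.5%) with 2 Mb (background 2.92%) and 3 of 40 with 5 Mb (background 3.69%). With peaks of −log10 q of at least 2 it was 5 of 40 (12.5%, background 3.94%).

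The first end of chromosome 2 held 26 vehicle and 44 BCAA peaks, the highest sum of any end, and 10 of 824 interior windows reached that sum. In it 6 vehicle peaks were met by a BCAA peak, and no vehicle peak reached a −log10 q of 5 (the authors' false discovery rate on a −log10 scale), while 3 BCAA peaks did. Its highest fold enrichment, the authors' ratio of signal to local background, was 5.35 with vehicle and 7.13 with BCAA. The opposite end of chromosome 2 held 2 vehicle peaks and 18 BCAA peaks, none of them shared.

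The first end of chromosome 7 held 16 vehicle and 52 BCAA peaks, the highest BCAA count of any end. Of 824 interior windows 8 had as many BCAA peaks and 84 as many vehicle peaks. The BCAA peaks there covered 16486 bp and the vehicle peaks 3024 bp, and 5 vehicle peaks were met. A BCAA peak at chr7:534281-535328 (1048 bp, fold enrichment 5.03) was the longest of this end, and the vehicle peak it met was 135 bp wide. The last end of chromosome 7 held 5 and 9 peaks, the lowest sum of all 40 ends. The next lowest were the last end of chromosome 14 (3 and 13) and the first end of chromosome 15 (5 and 11).

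The last end of chromosome 17 had the most shared peaks of any end. It held 22 vehicle and 30 BCAA peaks, of which 13 (59.1%) and 12 (40%) were met by the other list. They lay together, 14 of 22 vehicle and 17 of 30 BCAA peaks being between 1 and 1.5 Mb from the end. With gaps of up to 20 kb joined, the run with the most peaks in any end, a description added after the values had been seen, was chr17:89387742-89468719, 81.0 kb with 11 vehicle and 13 BCAA peaks, of which 10 and 9 were shared. The longest vehicle peak of all ends (chr17:89418910-89419742, 833 bp, fold enrichment 5.69) lay in it and overlapped a BCAA peak of 898 bp (5.04). The longest BCAA peak of all ends (chr17:89455236-89456714, 1479 bp, 3.87) spanned 2 vehicle peaks there, and another at chr17:89460323-89461616 (1294 bp, 3.93) met 1 vehicle peak.

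Of the other dense ends, the last end of chromosome 10 held 22 and 25 peaks, with 9 and 12 of them in its outermost 0.5 Mb. The last end of chromosome 18 held 14 and 33, and the first end of chromosome 5 held 12 and 31. Vehicle and BCAA counts of the 40 ends had a Pearson correlation of 0.646 and a rank correlation (Spearman) of 0.618, and those of the 824 interior windows had 0.771 and 0.465. Windows share their library and are no replicates.

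**Figure D3:**
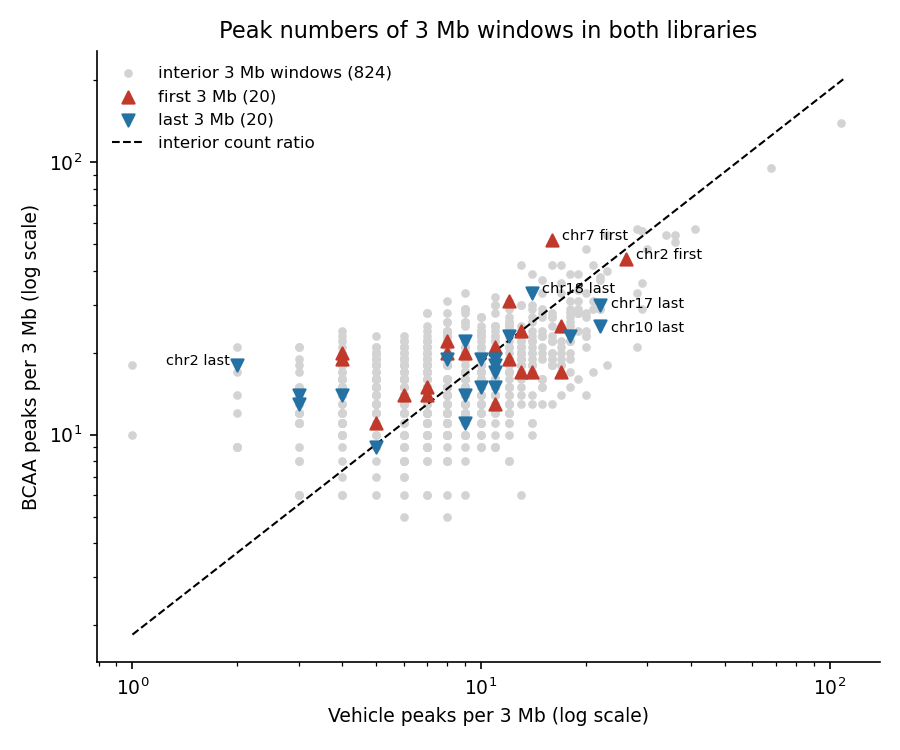
Vehicle peaks (x axis) against BCAA peaks (y axis) per 3 Mb window on log scales, for interior windows (grey), first ends (upward triangles) and last ends (downward triangles), with the interior count ratio of 1.85 dashed. The first ends of chromosomes 2 and 7 have the highest BCAA counts of the ends, and the last end of chromosome 2 lies far to the left at 2 vehicle peaks.

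The number of BCAA peaks per vehicle peak did not set the ends apart. It was 1.90 (1.69 to 2.14) in the ends and 1.85 (1.80 to 1.90) in the interior, and the ratio of the ends over that of the interior was 1.03 (0.912 to 1.16). First ends had 1.98 (1.68 to 2.34) and last ends 1.82 (1.53 to 2.17). Among ends with at least 20 peaks in all, 3 of 35 had a ratio at least 2 times the interior ratio (background 7.03% of 669 windows) and 0 of 35 had one at or below the interior ratio divided by 2 (background 3.14%). The shares do not set the ends apart from other windows.

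The 3 high ratios were those of the last end of chromosome 2 (18 BCAA and 2 vehicle peaks, 9, 2.15 to 80.0), the first end of chromosome 16 (20 and 4, 5, 1.67 to 20.1) and the first end of chromosome 17 (19 and 4, 4.75, 1.58 to 19.2). Each rested on few vehicle peaks. Only the first of them had an interval wholly above the interior ratio (1 of 35 ends, background 1.20%), and none lay wholly below it (background 1.94%). The lowest ratios were those of the first end of chromosome 14 (17 and 17, 1.00, 0.480 to 2.08), the last end of chromosome 10 (1.14, 0.615 to 2.11) and the first end of chromosome 4 (13 and 11, 1.18, 0.489 to 2.91). The first end of chromosome 7 had a ratio of 3.25 (1.83 to 6.10). With the BCAA list cut to the length of the vehicle list, it held 40 BCAA peaks, a ratio of 2.5 (1.37 to 4.78) against 0.988 in the interior, while the last end of chromosome 2 then held 9, a ratio of 4.50 (0.931 to 42.8).

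Peaks of the ends were about as wide as those of the interior. Median width was 157 bp (153 to 161) in the ends and 154 bp (153 to 154) in the interior with vehicle, and 190 bp (188 to 193) and 187 bp (186 to 187) with BCAA. The difference of 3 bp in each list is small beside the quartiles of the ends, 139 and 177 bp with vehicle and 174 and 225.5 bp with BCAA. Peaks of 500 bp or more made up 2.83% (12, 1.47 to 4.89%) of vehicle and 7.20% (58, 5.51 to 9.20%) of BCAA end peaks, against 2.74% and 6.14% in the interior. In covered sequence the ends had 657 bp per Mb against 574 with vehicle and 1657 against 1402 with BCAA. Peaks of both ends pooled more often had a close neighbour of the same list. With vehicle 16% (12.7 to 19.9%) had another within 10 kb, against 10.8% (10.1 to 11.5%) in the interior, and with BCAA 19.5% (16.8 to 22.4%) against 14.4% (13.8 to 15%). By side, the BCAA share was 23.7% (19.8 to 28%) in the first ends and 14.6% (11.1 to 18.6%) in the last ends, where it was near that of the interior. The vehicle shares were 17.3% (12.5 to 22.9%) and 14.7% (10.1 to 20.3%), and the interval of the last ends includes the interior share.

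Sharing between the libraries was somewhat more frequent in the ends, and the excess over the interior was larger in the last ends. A BCAA peak overlapped 96 of the 424 vehicle end peaks by at least 1 bp (22.6%, 18.7 to 26.9%; background over chromosomes 1 to 20 16.9%), against 16.6% (15.8 to 17.4%) in the interior. A vehicle peak met 94 of the 806 BCAA end peaks (11.7%, 9.53 to 14.1%; background 8.90%), against 8.75% (8.30 to 9.22%). By side, the vehicle share was 20.5% (15.3 to 26.4%) in the first ends and 25% (19.2 to 31.5%) in the last ends, and the BCAA share 10.1% (7.45 to 13.3%) and 13.5% (10.2 to 17.4%). The intervals of the first ends include the interior share in both lists, and those of both sides overlap. Shared peaks were denser in the ends, at 0.800 per Mb against 0.532 with vehicle, a ratio of 1.5 (1.21 to 1.85), and at 0.783 against 0.517 with BCAA, a ratio of 1.52 (1.22 to 1.87). Peaks without a partner were about as dense in the ends as in the interior with vehicle, at 2.73 per Mb against 2.67 (ratio 1.02, 0.913 to 1.14). With BCAA they stood at 5.93 against 5.39 (1.10, 1.02 to 1.19). No shared peak was found in 11 of 40 ends. Interior windows without a shared peak were not counted, so this number has no background and is not read as high or low.

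The last end of chromosome 17 carried part of this. Without it the shares were 20.6% (16.8 to 24.9%) and 10.6% (8.49 to 12.9%), whose intervals reach into those of the interior, and the densities of shared peaks were 1.33 (1.06 to 1.67) and 1.36 (1.07 to 1.70) times those of the interior. Strong peaks were shared more often than weak ones, and with BCAA weak peaks were a smaller share of the ends, though not fewer per Mb (2.93 under a −log10 q of 1.5, against 2.94 in the interior). Peaks of −log10 q under 1.5 made up 43.7% (40.2 to 47.2%) of BCAA end peaks and 49.8% (49.0 to 50.6%) of interior peaks, and 12.5% (9.51 to 16%) and 14.6% (13.8 to 15.4%) with vehicle. The strongest class differed less. Peaks of −log10 q of at least 5 made up 6.37% (4.24 to 9.13%) of vehicle end peaks and 5.59% (5.10 to 6.12%) of interior peaks, and 6.58% (4.96 to 8.51%) and 5.74% (5.37 to 6.13%) with BCAA. In that class 22 of 27 vehicle peaks of the ends were met (81.5%, 61.9 to 93.7%), against 75.4% in the interior, and 32 of 53 BCAA peaks were (60.4%, 46.0 to 73.5%), against 60.6%. For vehicle peaks of −log10 q from 2 to 5 the shares were 28.1% (21.5 to 35.6%) in the ends and 21.6% (20.2 to 23.1%) in the interior. From 1.5 to 2 they were 10.7% and 7.83%, and under 1.5 they were 15.1% and 6.86%. For BCAA peaks the shares were 14.9% and 11.8% from 2 to 5. From 1.5 to 2 they were 11.5% and 6.03%, and under 1.5 they were 1.99% and 1.86%. The part of peak strength in the sharing was not tested.

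**Figure D4:**
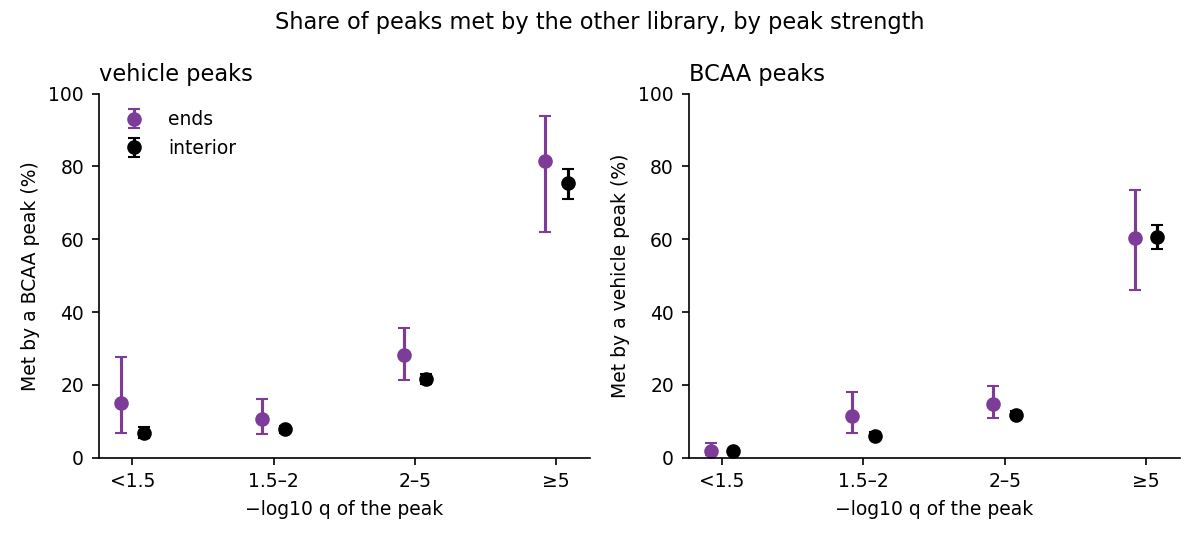
Share of peaks met by a peak of the other library (y axis, percent, with exact 95% bars) by −log10 q of the peak (x axis), in the ends and in the interior. Sharing is highest in the strongest class, at 81.5% of vehicle and 60.4% of BCAA end peaks, and the bars of ends and interior overlap in every class.

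Some of the strongest autosomal peaks lay at the ends. Of the 50 autosomal peaks of highest −log10 q, 6 vehicle peaks (12%, 4.53 to 24.3%) and 5 BCAA peaks (10%, 3.33 to 21.8%) were in the ends, which make up 4.58% of the autosomal length, a share within both intervals. The shared site of highest enrichment was in the first end of chromosome 1, where the vehicle peak chr1:270803-270975 (fold enrichment 38.2) matched a BCAA peak at chr1:270801-270975 (29.8). By fold enrichment it ranked 2 among the 8420 autosomal vehicle peaks and 1 among the 15564 BCAA peaks. It lay in a run of 40.8 kb with 4 vehicle and 4 BCAA peaks.

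The next sites by the lower of their enrichments were at last ends. These were chr4:182018920-182019085 (25.3 with vehicle, and 22.8 at chr4:182018919-182019086 with BCAA), chr11:90463570-90463836 (24.4, and 20.8 at chr11:90463582-90463836) and chr7:145727612-145728355 (18.3, and 13.2 at chr7:145727611-145728361). The sites on chromosomes 11 and 7 were the outermost peaks of their chromosomes, and that of chromosome 7, 744 bp wide with vehicle and 751 bp with BCAA, matched almost base for base. They were followed by chr12:1510215-1510527 (15, within the BCAA peak chr12:1510148-1511477 of 1330 bp, 11.7) and chr19:329401-329676 (11.7, and 11.5 at chr19:329448-329714). The first end of chromosome 12 had 11 vehicle peaks, of which 6 (54.5%) were met, and 3 vehicle and 5 BCAA peaks of −log10 q of at least 5.

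The outermost peaks were listed for both sides. In 6 of 20 last ends (chromosomes 4, 7, 11, 16, 18 and 19) the outermost vehicle peak and the outermost BCAA peak overlapped, and in 0 of 20 first ends they did. Over chromosomes 1 to 20, 16.9% of vehicle peaks were met by any BCAA peak. The difference in overlap between the sides was not tested. The outermost vehicle peak lay within 100 kb of the end in 16 last ends, and the outermost BCAA peak did in 19. Much of this is fixed in advance, since 9 of these vehicle peaks and 12 of these BCAA peaks set the chromosome length themselves. Position 1 and not a peak defines the first end, so the distances of the sides are not on a common scale. In the first ends the nearest peaks were chr3:4447-4614 with BCAA (fold enrichment 3.53), chr5:7250-7375 with vehicle (2.86) and chr15:13613-13813 with BCAA (3.95). On chromosome 5 a BCAA peak of 971 bp (chr5:8202-9172, 5.62) followed within 1 kb. Chromosome 13 was bare for longest, its outermost peaks starting at 1084626 with vehicle and 856837 with BCAA.

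Among peaks of the ends without a partner, the strongest with vehicle was chr1:282525818-282525945 at a fold enrichment of 36.8, with the nearest BCAA peak 26.1 kb away. At 128 bp it was shorter than any BCAA peak. After it came chr4:780497-780634 (8.39), chr4:1155999-1156260 (6.10), chr3:176885769-176885896 (5.62) and chr4:452828-452957 (5.58), so that 3 of the 5 lay in the first end of chromosome 4, which had no shared peak. With BCAA the strongest were chr7:143857130-143857311 (11.3), chr3:2446974-2447200 (9.02), chr4:2142966-2143130 (8.66), chr5:172867417-172867632 (7.54) and chr18:538900-539405 (7.14). The remaining long vehicle peaks of the ends were chr19:327472-328285 (814 bp, 5.58), which met a BCAA peak of 905 bp, and chr7:1466735-1467377 (643 bp, 4.64), which met none.

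Peaks beside the 3 Mb limit ranged from weak to strong. The vehicle peaks just inside it were chr10:2999403-2999598 (fold enrichment 2.90) and chr5:170583029-170583235 (6.02), and those just outside were chr8:3010833-3010956 (2.90) and chr3:174651312-174651485 (3.75). The BCAA peaks just inside were chr13:2994500-2994683 (3.58) and chr2:263119714-263119888 (2.82), and those just outside were chr17:3007372-3007539 (8.30) and chr19:59250830-59251056 (2.81).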

How the data were processed

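The 4 deposited files were lists of broad peaks, 1 for each library. BWA, MACS2, deepTools, ChIPseeker and rn6 are named in the submitters' processing notes, and versions, settings and the use of IgG as a control in calling were not given in the sources used here. For every peak the deposited columns were a score, which was not used, the authors' fold enrichment (a linear ratio to the local background), and the deposited −log10 p and −log10 q. Fold and −log10 q describe and rank peaks within a list. Positions are 1-based rn6 coordinates. No gene, repeat or sequence is given for a peak, since neither the rn6 sequence nor its annotation was used here.

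Overlaps of at least 1 bp came from bedtools 2.31.1. Shares carry Clopper-Pearson 95% intervals, ratios the interval of the corresponding binomial share, ratios of count ratios the conditional odds ratio interval, densities by distance exact Poisson intervals, and medians order-statistic intervals. Interior windows were tiled from the first 3 Mb limit. Chromosome shapes are textbook knowledge. Named regions were the 6 ends with most peaks, the 3 with fewest, the 3 highest and lowest count ratios among ends of at least 20 peaks, the 6 shared pairs of highest lower enrichment, the 5 strongest unshared and 4 longest peaks per list, the nearest to the tips, and those beside the limit. Other regions named were picked once their values were known. The members and comparisons were chosen with earlier results of these data known. The calculation was tested on simulated peaks. Python 3.11.15, numpy 2.4.6, scipy 1.17.1, pandas 2.3.3 and matplotlib 3.10.9 were used.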

Additional observations from a re-analysis of the deposited data

How the results depend on the processing

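The density of the ends stayed above that of the interior in 12 alternatives per list, from 1.06 to 1.38 with vehicle and from 1.10 to 1.40 with BCAA. Its interval excluded equality in 7 of 12 with vehicle and 11 of 12 with BCAA. The alternatives reuse the same peaks, so these counts are not independent support. All but the alternative that drops them hold peaks that set the chromosome length. Such peaks raise the ratio by construction, most of all with ends of 1 Mb. The 12 alternatives per list leave out any that does not alter the list, and 2 trimmings chosen after seeing the data. Of these trimmings, dropping the 10 densest interior windows raises the ratio by construction (1.15 and 1.18). Dropping the first ends of chromosomes 2 and 7 lowers it by construction (1.05 and 1.05). The 12 do include the alternative without the densest end, the first end of chromosome 2. It also lowers the ratio by construction and gave the lowest values, 1.06 and 1.10. The alternative without the peaks that set the chromosome length was also chosen after seeing the data. For vehicle peaks it gave 1.08, and the interval of 0.976 to 1.19 includes equality. For BCAA peaks it gave 1.12 (1.04 to 1.20). With ends of 1 Mb the ratio was 1.38 and 1.40, at −log10 q of at least 5 it was 1.26 and 1.30, at 2 it was 1.28 with BCAA, with equal lists 1.28 with BCAA, and with a common shortest width 1.28 with vehicle. First to last ends gave 1.35 with vehicle for 1 Mb and 0.588 at −log10 q of at least 5 (10 and 17 peaks). With BCAA this ratio turned to 0.963 at that limit (26 and 27 peaks) and was 1.01 for 5 Mb. Without the peaks that set the chromosome length it was 1.21 (1.05 to 1.40), while vehicle peaks gave 1.13 (0.926 to 1.38).

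At −log10 q of at least 2 the share of vehicle and BCAA end peaks met was 30.4% and 18.4%, at 5 66.7% and 34%, with a common shortest width 39.0% and 8.56%, with reciprocal overlap of 50% 16.3% and 8.56%, within 5 kb 33.0% and 18.4%, and with equal lists 18.2% for BCAA. Both shares exceeded those of the interior in each alternative except for vehicle at 5, where it was 66.7% against 67.1%. The ratio of BCAA to vehicle counts stood at 1.62 for −log10 q from 2, 4.43 with a common shortest width and 1.14 with equal lists, between 0.885 and 1.16 times that of the interior in all 12 alternatives. Median width was 164 and 197 bp at −log10 q of at least 2, 180 and 267 bp at 5, 182 bp with vehicle for a common shortest width and 197 bp with BCAA for equal lists. Ends dense in both lists numbered 7 of 40 with 1 Mb windows (background 2.61%), 5 at −log10 q of at least 2 (3.94%), 3 with 2 Mb (2.92%) and 3 with 5 Mb (3.69%). The cause of these shifts was not tested, except where a limit shortens a list by construction. No paired analysis was possible because every condition had a single library. A site missing from a list may be undetected or absent.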

Other observations

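The ends were also grouped by chromosome shape, after the values had been seen, with shapes from the standard rat karyotype. The first ends of the 8 telocentric chromosomes, which are the centromeric tips where numbering starts at the short arm, as is the convention, held 106 vehicle peaks, or 4.42 per Mb against 3.05 in the interior of the same chromosomes (ratio 1.45, 1.18 to 1.76). With BCAA they held 203 peaks, or 8.46 per Mb against 5.71 (1.48, 1.28 to 1.70). Much of this came from chromosomes 2 and 7, with 26 and 16 vehicle and 44 and 52 BCAA peaks. The other 6 telocentric first ends stood at 1.17 (0.896 to 1.49) times the interior density with vehicle and at 1.04 (0.853 to 1.26) with BCAA. The last ends of these chromosomes held 80 and 145 peaks, 1.09 (0.865 to 1.36) and 1.06 (0.892 to 1.25) times the interior density. First to last, the telocentric ends gave 1.33 (0.982 to 1.79) for vehicle peaks and 1.40 (1.13 to 1.74) for those of BCAA.

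The 7 metacentric chromosomes carry the centromere far from both tips. Their first ends were at 0.885 (0.671 to 1.15) times the interior density for vehicle peaks and at 1.08 (0.899 to 1.28) with BCAA. The first ends of the 5 subtelocentric chromosomes stood at 1.05 in both lists (0.786 to 1.37 and 0.849 to 1.28). The last ends were at 1.10 (0.855 to 1.38) and 1.15 (0.966 to 1.36) in the metacentric chromosomes, and at 0.971 (0.721 to 1.28) and 0.888 (0.707 to 1.10) in the subtelocentric ones. Telocentric first ends were uneven, with 7 to 26 vehicle peaks (median 12.5) and 13 to 52 BCAA peaks (median 17). The difference between shapes was not tested.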
